A study of Mus musculus with 4 samples.

Results

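The 10 genes described here, Isg15, Ifit1, Ifit2, Ifit3, Oasl1, Oasl2, Irf7, Rsad2, Usp18 and Ifi44, are interferon-stimulated genes, and each was taken by its symbol from the deposited table of transcription start clusters. They are 10 of the 17037 genes kept, and they hold 15 of the 67319 distinct clusters. All 4 libraries form 1 group: lesional facial skin of C57BL/6 mice of the FADS model at 28 days of age, with the genotype given as Nectin-cre(+);Ikk2FL/FL;Postn-/-. Every library therefore carries both the Cre-driven deletion of Ikk2, a kinase of the NF-kB pathway, and the loss of Postn, which encodes the matrix protein periostin. Cre acts where the promoter named in the label is active, and the cells in which that is so are not stated. With no unaffected, untreated or Postn-carrying skin among these libraries, no comparison between conditions could be made. Libraries 1 to 4 carry the codes Fads_Ix17.1L, Fads_Ix17.1R, Fads_Ix17.2L and Fads_Ix17.2R; the labels explain neither the number nor the letter of a code, and do not say whether the skins came from 4 animals. All p-values thus refer to the spread among these samples, part or all of which may be technical.

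Type I interferons bind a receptor pair on the cell surface, and the JAK kinases there activate STAT proteins, which join IRF9 to form the factor ISGF3. ISGF3 binds the interferon-stimulated response element (ISRE) in promoters and switches on genes that block viral replication or adjust the response itself. Interferon-gamma acts through STAT proteins on the GAS element, and the skin holds several cell types that can respond to either kind of interferon.

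CAGE reads the capped 5′ end of RNA, so the values count transcription starts and do not depend on transcript length. The libraries held 18179860, 18823630, 17630119 and 17939565 tags over all entries, and 1 tag was worth 0.0550, 0.0531, 0.0567 and 0.0557 CPM, the unit in which tags are scaled to a common library total. Markers of keratinocytes (8907 ± 1626 CPM summed over 8 of 8 genes), fibroblasts (4600 ± 1394 CPM, 6 of 6 genes) and skeletal muscle (3188 ± 1226 CPM, 6 of 6 genes; SD, n = 4 for each) were all present. In such whole tissue, fewer cells of a type and less RNA per cell cannot be told apart.

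The promoters of the members are shown first because the ISRE is the element that the pathway acts on, and because CAGE places the start of each RNA beside it. RefSeq promoter windows (GRCm38.p6, 300 bases each) matched 9 of the 10 genes; Usp18 was not matched. The core of the ISRE was searched on both strands as GAAA, any 2 bases and GAAA again, which on the other strand reads TTTC, any 2 bases and TTTC. It occurred in the windows of Isg15, Ifit1, Ifit3 and Rsad2, and in 1131 of all 32851 windows (3.44%). The GAS element was searched as TTCNNNGAA, where N is any base, which reads alike on both strands. It occurred in the window of Ifit2 and in 8.30% of all windows. In Ifit2 it began 241 bases before the RefSeq start and 139 bases before the upstream edge of the start cluster. A TATA box, searched as TATAAA on the gene's strand, occurred in the window of Irf7 and in 8.32% of all windows. Variants of these letters were not searched, so an ISRE, a GAS element or a TATA box in the other windows is not excluded. The 160 bases before the RefSeq start are given below for the 5 genes with a match in that stretch, written 5′ to 3′ on the gene's strand, with the ISRE cores of the first 4 genes and the TATA box of Irf7 in capitals.
Isg15 (chr4:156200819-156200978, minus strand): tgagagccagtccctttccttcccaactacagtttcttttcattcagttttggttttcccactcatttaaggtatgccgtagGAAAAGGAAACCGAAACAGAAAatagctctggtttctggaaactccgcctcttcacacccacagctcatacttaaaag
Ifit1 (chr19:34640729-34640888, plus strand): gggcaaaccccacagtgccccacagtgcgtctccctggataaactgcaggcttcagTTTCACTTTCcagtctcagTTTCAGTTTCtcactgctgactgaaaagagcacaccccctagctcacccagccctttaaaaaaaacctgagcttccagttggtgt
Ifit3 (chr19:34583369-34583528, plus strand): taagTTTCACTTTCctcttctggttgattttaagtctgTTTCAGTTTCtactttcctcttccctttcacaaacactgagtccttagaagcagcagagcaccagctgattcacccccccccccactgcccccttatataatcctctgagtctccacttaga
Rsad2 (chr12:26456453-26456612, minus strand): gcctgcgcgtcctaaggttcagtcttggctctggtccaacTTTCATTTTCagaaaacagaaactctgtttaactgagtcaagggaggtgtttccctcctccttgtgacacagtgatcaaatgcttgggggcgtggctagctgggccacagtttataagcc
Irf7 (chr7:141266425-141266584, minus strand): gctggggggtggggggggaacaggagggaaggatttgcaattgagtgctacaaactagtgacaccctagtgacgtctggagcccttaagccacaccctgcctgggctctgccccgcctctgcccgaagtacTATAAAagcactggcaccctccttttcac
The capitals in Isg15 are 3 overlapping matches that begin 78, 72 and 66 bases before the RefSeq start, from which these distances are counted. Ifit1 carried its cores 104 and 85 bases before the start, and Ifit3 carried them 156 and 122 bases before it. Rsad2 held 1 core, 120 bases before the start. Counted instead from the upstream edge of the most used start cluster, the distances differed. They were 94, 88 and 82 bases for Isg15, 66 and 47 for Ifit1, 154 and 120 for Ifit3, and 105 for Rsad2. In Ifit1, Ifit3 and Rsad2 the core read on the opposite strand. The TATA box of Irf7 began 29 bases before the start, a place at which 1.99% of all windows had one when matches from 40 to 15 bases before the start were counted. A match is a description of letters and not a bound site. For Oasl2 and Oasl1 the deposited clusters lay outside the RefSeq window, at 567 and 85 bases downstream of the RefSeq start. The window of Oasl2 therefore says nothing about the bases next to the starts used in this skin. The window of Oasl1 ends shortly before its cluster and held no match to the ISRE core, GAS or TATA box.

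**Figure D1:**
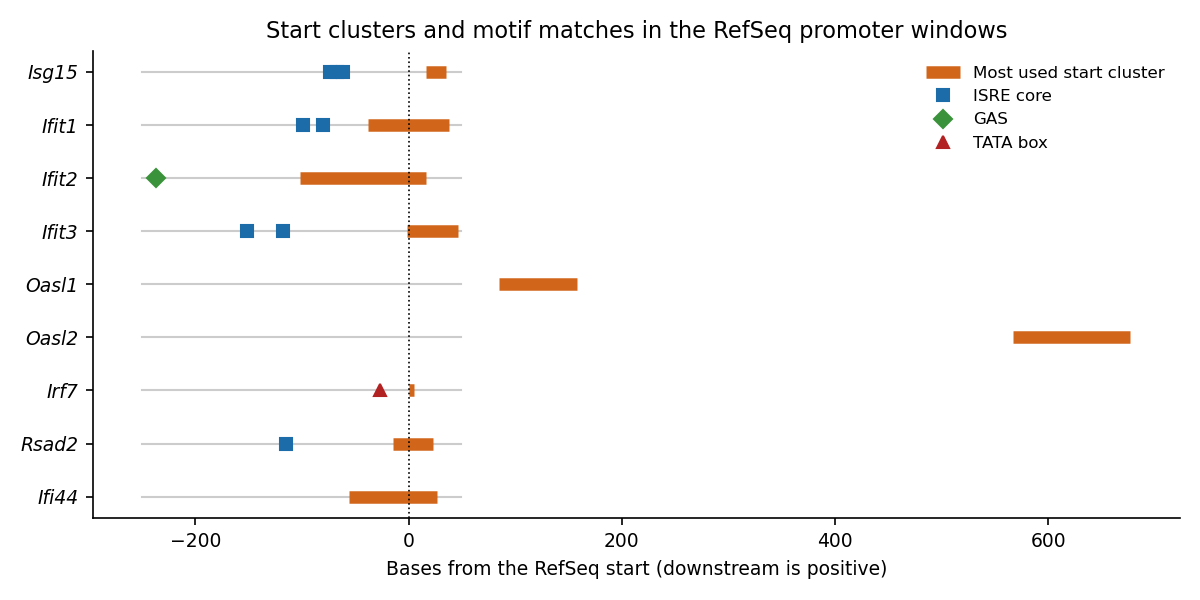
Positions of the ISRE core, GAS and TATA box matches and of the most used start cluster (bars), in bases from the RefSeq start (x axis), for the members with a RefSeq promoter window (y axis). The cores of Isg15, Ifit1, Ifit3 and Rsad2 lie between 156 and 57 bases before the start, and the TATA box of Irf7 begins 29 bases before it.

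Irf7 and Isg15 were the most abundant members, and all 10 genes had at least 3 tags in every library. The summed level was 73.9, 69.7, 89.5 and 110.2 CPM in libraries 1 to 4 (85.8 ± 18.3 CPM, SD, n = 4). Library 4 had the highest sum and library 2 the lowest. Isg15 and Irf7 together supplied 68.2% ± 4.71 of it. By mean CPM the members ranked between 5711 (Irf7) and 14683 (Ifi44) among the 17037 genes.

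Irf7 encodes the transcription factor that induces most interferon alpha genes and is itself induced by interferon. It had 32.8, 32.4, 29.0 and 41.3 CPM in libraries 1 to 4, from 597, 610, 512 and 741 tags (33.9 ± 5.22 CPM). Library 4 was highest and library 3 lowest, with libraries 1 and 2 almost level. The tags of Irf7 fell into 4 clusters on the minus strand of chromosome 7, and 2 of these held nearly all of them. The cluster at chr7:141266419-141266424 (GRCm38) spans the annotated starts of Irf7-202, Irf7-203, Irf7-208, Irf7-210 and Irf7-213 and held 50.6% ± 0.300 of the tags. The cluster at chr7:141266043-141266047 held 48.1% ± 0.627 and lies at the first base of exon 2 of Irf7-201, Irf7-202 and Irf7-203, where the processed transcript Irf7-207 also has its annotated start. The other two clusters, at chr7:141266457-141266461 and chr7:141266467-141266476, lie within exon 1 of Irf7-201 and held between 0 and 9 tags in each library.

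The cluster at the edge of exon 2 kept a nearly constant ratio to the start cluster of Irf7. It held 286, 295, 242 and 361 tags in libraries 1 to 4, beside 304, 308, 257 and 375 tags in the start cluster. The ratio of the edge cluster to the start cluster was 0.941, 0.958, 0.942 and 0.963 (0.951 ± 0.0112, SD, n = 4), so the start cluster was slightly larger in every library. Exon 1 of Irf7-203 is only 32 bases long, and 31 bases separate the centre of the start cluster from the end of that exon.

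Such edge clusters were more frequent across the table where few bases lay between the start cluster and the end of exon 1. Among genes with at least 100 tags in the start cluster and 30 to 39 bases from it to the end of exon 1, 99 of 264 (37.5%) had a cluster at the edge of exon 2, with a median ratio of 0.589. At 200 bases or more, 175 of 3966 genes (4.41%) had one, with a median ratio of 0.00768. Shorter distances had similar shares but lower median ratios. These were 37.3% and 0.203 under 20 bases, and 35.1% and 0.302 from 20 to under 30 bases. Irf7 was 1 of 13 genes in the class of 30 to 39 bases with a ratio between 0.8 and 1.0. Whether the same RNA molecules were counted in both Irf7 clusters was not tested. Without the edge cluster Irf7 had 17.11, 16.7, 15.3 and 21.2 CPM (17.6 ± 2.52 CPM), and the sum over the 10 genes was 58.2, 54.0, 75.8 and 90.1 CPM (69.5 ± 16.6 CPM).

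**Figure D2:**
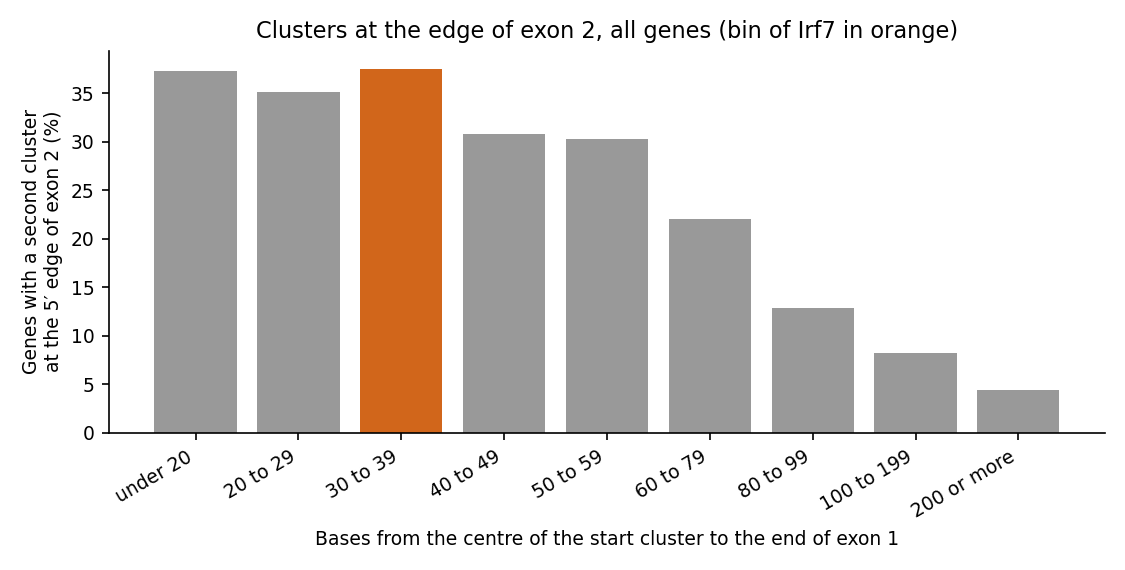
Share of genes with a cluster at the edge of exon 2, in percent (y axis), by the number of bases from the start cluster to the end of exon 1 (x axis), for genes with at least 100 tags in the start cluster; the class that holds Irf7 is marked. The share is 37.5% at 30 to 39 bases and 4.41% at 200 bases or more.

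Isg15 encodes a ubiquitin-like protein that is coupled to other proteins, and Usp18 encodes the protease that removes it and that also dampens signalling at the interferon receptor. Isg15 had 21.3, 16.6, 26.7 and 32.5 CPM in libraries 1 to 4, from 387, 312, 470 and 583 tags (24.3 ± 6.87 CPM). It was highest in library 4 and lowest in library 2. All its tags lay in 1 cluster of 19 bases at chr4:156200783-156200802 on the minus strand, within exon 1 of Isg15-201 and 16 bases downstream of its annotated start. Usp18 had 4.62, 4.46, 8.17 and 7.30 CPM, from 84, 84, 144 and 131 tags (6.14 ± 1.88 CPM). Libraries 3 and 4 stood above libraries 1 and 2, which were level. Its 1 cluster, at chr6:121245879-121245954 on the plus strand, spans the annotated start of Usp18-201.

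The 3 IFIT genes sit near each other on the plus strand of chromosome 19 and encode proteins with tetratricopeptide repeats, of which IFIT1 binds the 5′ end of foreign RNA. Ifit1 had 2.04, 2.66, 3.57 and 5.02 CPM in libraries 1 to 4, from 37, 50, 63 and 90 tags (3.32 ± 1.30 CPM). Library 4 was highest and library 1 lowest, by 2.47-fold. Ifit2 had 1.76, 1.91, 2.27 and 2.40 CPM, from 32, 36, 40 and 43 tags (2.08 ± 0.298 CPM). It was the most even member on the linear scale, with 1.36-fold between its highest and lowest library. Ifit3 had 0.880, 1.38, 1.30 and 2.56 CPM, from 16, 26, 23 and 46 tags (1.53 ± 0.722 CPM). Library 4 was highest by 2.91-fold over library 1, and libraries 2 and 3 were close to each other.

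Each IFIT gene had 1 cluster that spans an annotated start: chr19:34640851-34640927 for Ifit1, chr19:34550592-34550710 for Ifit2 and chr19:34583527-34583575 for Ifit3. Ifit3 has a near-identical copy, Ifit3b, which the table lists separately with 1.05, 0.691, 2.21 and 2.29 CPM (1.56 ± 0.811 CPM). How tags that match both copies were assigned is not given, so the split between Ifit3 and Ifit3b is uncertain. In library 3, Ifit3b was above Ifit3, and in library 2 it was below.

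Oasl1 and Oasl2 encode relatives of the oligoadenylate synthetases, which sense double-stranded RNA; mouse OASL1 is known to restrain the translation of Irf7 mRNA. Oasl2 had 5.78, 6.06, 12.02 and 11.6 CPM in libraries 1 to 4, from 105, 114, 212 and 208 tags (8.86 ± 3.41 CPM). Libraries 3 and 4 stood together above libraries 1 and 2, with 2.08-fold between the highest and the lowest. Oasl1 had 1.71, 1.43, 2.84 and 2.62 CPM, from 31, 27, 50 and 47 tags (2.15 ± 0.683 CPM). It showed the same division of the libraries. The 1 cluster of Oasl1, at chr5:114923325-114923398 on the plus strand, lies within exon 1 of Oasl1-202, 61 bases downstream of its annotated start.

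Oasl2 was the other member with more than 1 cluster. The most used, at chr5:114897501-114897611 on the plus strand, held 88.6%, 80.7%, 81.6% and 79.3% of its tags in libraries 1 to 4 (82.6% ± 4.12). A second cluster further into the gene, at chr5:114897729-114897813, spans the start of the nonsense-mediated decay transcript Oasl2-205 and held 12, 22, 36 and 39 tags (16.6% ± 3.60). The third, at chr5:114897627-114897631, had 0, 0, 3 and 4 tags. A count of 0 allows up to 3 tags, so its absence from libraries 1 and 2 is not shown. The share of the most used cluster in library 1 has an exact Clopper-Pearson 95% interval of 80.9% to 94.0%, which covers counting error only. The shares of libraries 2 and 4 lie just below that interval and the share of library 3 lies just inside it. The intervals of libraries 2, 3 and 4 were 72.3% to 87.5%, 75.7% to 86.6% and 73.2% to 84.6%. Each overlaps that of library 1. All 3 clusters lie within exon 1 of Oasl2-201. The most used one spans the annotated starts of Oasl2-204 and Oasl2-209, both retained-intron transcripts. It also spans the first base of exon 2 of Oasl2-206 and Oasl2-207.

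Rsad2 encodes viperin, a radical SAM enzyme that makes a chain-terminating nucleotide, and Ifi44 encodes an interferon-induced protein of the cytoplasm. Rsad2 had 2.09, 2.07, 2.61 and 3.46 CPM in libraries 1 to 4, from 38, 39, 46 and 62 tags (2.56 ± 0.649 CPM). Its cluster is at chr12:26456429-26456467 on the minus strand and spans the starts of Rsad2-201 and Rsad2-202. Ifi44 was the lowest member, with 0.935, 0.744, 1.02 and 1.45 CPM from 17, 14, 18 and 26 tags (1.04 ± 0.298 CPM). Both genes were highest in library 4. The cluster of Ifi44, at chr3:151749883-151749966 on the minus strand, spans the starts of Ifi44-201, Ifi44-202 and Ifi44-203.

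**Figure D3:**
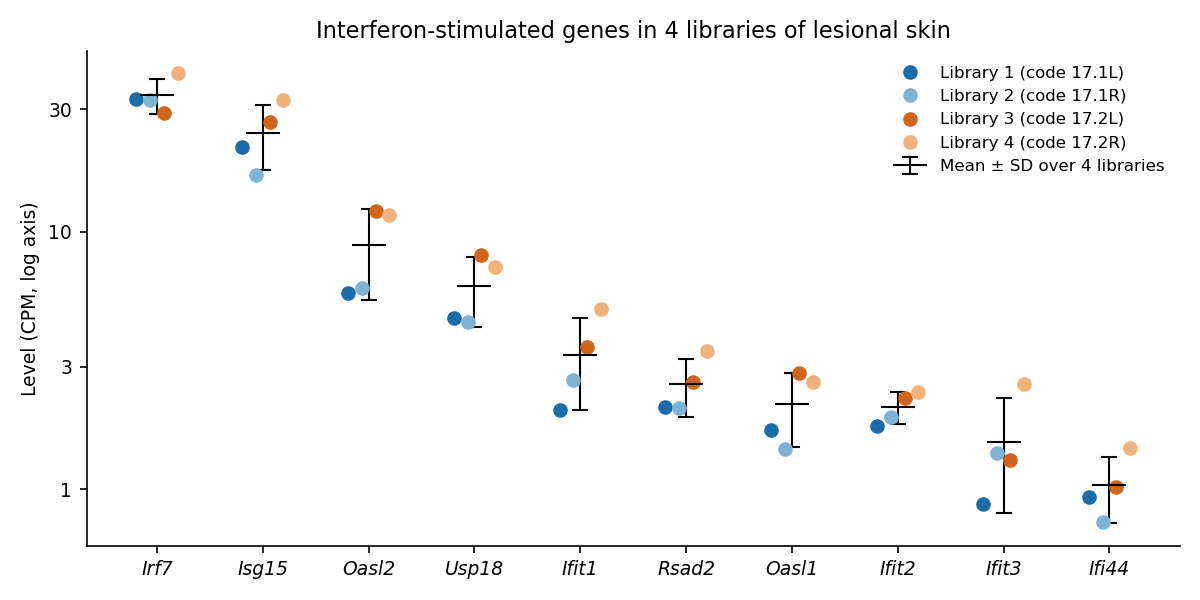
CPM of each member (log y axis) in each of the 4 libraries (points), with the mean and SD over the libraries; genes run from the highest to the lowest mean on the x axis. Irf7 (33.9 CPM) and Isg15 (24.3 CPM) lie well above Ifi44 (1.04 CPM).

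Of the 10 members 8 had 1 cluster, as did 43.8% of the tested genes, while Oasl2 had 3 and Irf7 had 4. None of the 15 clusters was also listed under another gene. Most clusters were listed once, with 69391 entries for 67319 distinct clusters. The most used start cluster of each member was shorter than the median of 124 bases over all tested genes, with Irf7 taken at its start cluster. Spans ran between 5 bases for Irf7 and 118 bases for Ifit2. Only 0.781% of the tested genes had a shorter span than Irf7, 4.45% than Isg15 and 7.32% than Rsad2. Low tag numbers limit how wide a cluster can be seen to be, and the part of the level in these spans was not tested. For 8 of the 10 members the most used start cluster spans an annotated start in GENCODE M21, for Oasl2 only of retained-intron transcripts. The same share over all tested genes was not computed, so this is not shown to be a trait of the members.

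**Figure D4:**
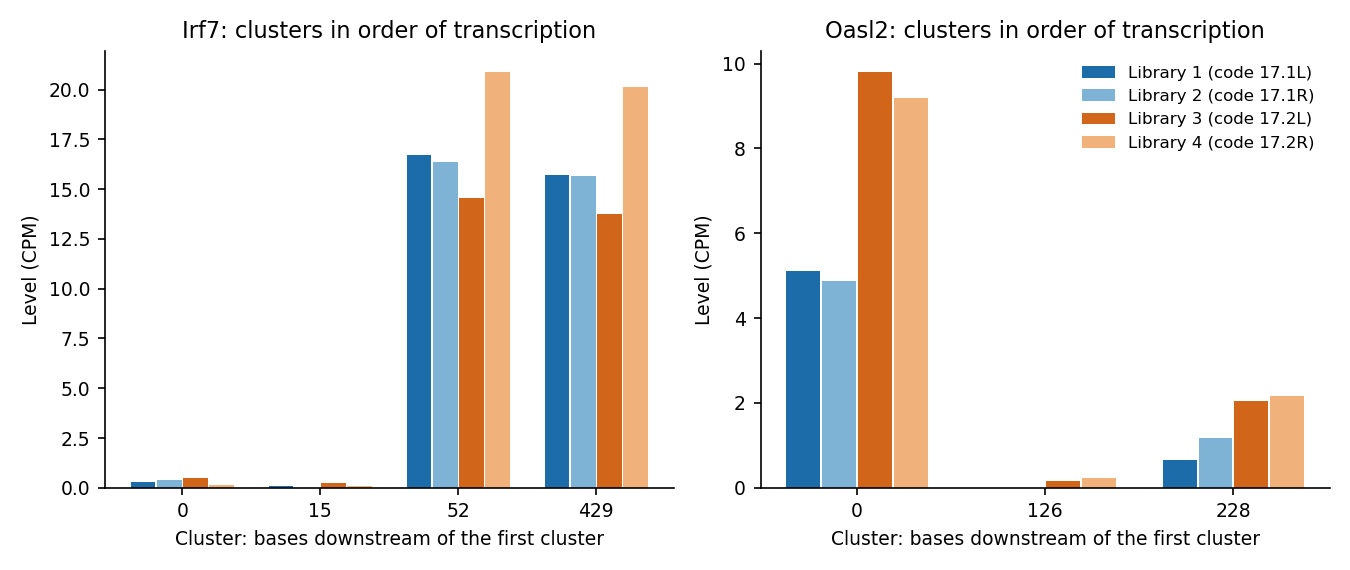
CPM (y axis) of each cluster of Irf7 (left) and Oasl2 (right) in each of the 4 libraries (bars); the x axis gives the distance of a cluster downstream of the gene's first cluster, in bases. The start cluster and the exon 2 edge cluster of Irf7 have nearly equal levels, and the most used cluster of Oasl2 holds 82.6% of that gene's tags.

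The 5 highest members kept their order in all 4 libraries with all clusters counted, and the lower ones did not. Irf7 was 1.43-fold above Isg15, and Isg15 was 2.81-fold above Oasl2, in all 4 libraries. Oasl2 was 1.41-fold above Usp18, and Usp18 was 1.88-fold above Ifit1, again in all 4. Ifit1 over Rsad2, Rsad2 over Oasl1, Ifit2 over Ifit3 and Ifit3 over Ifi44 each held in 3 of 4 libraries. Oasl1 and Ifit2 did not differ beyond their spread (log2 ratio within 0.00 ± 0.31), and neither did Rsad2 and Oasl1 (0.27 ± 0.28). The exact two-sided sign-flip permutation test over 4 libraries cannot give a p under 0.125, so no neighbouring pair could pass. Without the edge cluster of Irf7 the top pair changed places: Isg15 was then 1.35-fold above Irf7 (log2 0.43 ± 0.36), in 3 of 4 libraries.

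The limma spread test asked whether a gene varied between the libraries beyond what its prior allows for genes of that level. No member passed it, on log2(CPM + 1) values with Benjamini-Hochberg adjustment over all 14732 genes tested. Of those genes 56 passed at an adjusted p under 0.05 (0.38%), against 0 of the 10 members. At an unadjusted p under 0.05 the members were Isg15 and Oasl2, 2 of 10 beside 6.27% of all tested genes. Their limma adjusted p-values were 0.770 for Isg15 and 0.779 for Oasl2. edgeR on the recovered tags also called 0 members, beside 35 genes (0.238%). In log2(CPM + 1) SD, Oasl2 exceeded 95.7% of the tested genes, Ifit1 93.5%, Ifit3 92.6%, Isg15 90.7% and Usp18 90.4%. Ifit2, by contrast, exceeded 40.3%. A log2(CPM + 1) scale understates the differences of genes near 1 CPM, and several members have few tags. With 4 libraries and a prior of only 3.49 degrees of freedom, not passing does not show that a member was even.

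The members nevertheless tended to be high in the same libraries. As deposited, 7 of the 10 were highest in library 4 (35.4% of all tested genes) and 3, Oasl2, Usp18 and Oasl1, in library 3 (35.3%). None was highest in library 1 (22.8% of all tested genes) or library 2 (6.48%). After scaling by the trimmed mean of M-values (TMM), which brings the median of all genes level, the background shares were 23.0% for library 4, 27.1% for library 3, 24.6% for library 2 and 25.3% for library 1, and the members' counts stayed at 7, 3, 0 and 0. The median deviation of the members from their own means, in TMM-scaled log2(CPM + 1), was -0.17, -0.14, 0.07 and 0.27 in libraries 1 to 4, while that of all tested genes lay within 0.01 of 0. In library 4 each of the 10 genes was above its own mean, while the quartiles of all tested genes there were -0.0786 and 0.0848. The share of all tested genes above their own mean was not computed. This count uses the same deviations as the median above and is not separate evidence.

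Libraries 3 and 4, which share a number in their codes, tended to be above libraries 1 and 2, which share another. For 8 members, all but Ifit3 and Irf7, both of libraries 3 and 4 were above both of libraries 1 and 2, as for 45.6% of all tested genes as deposited and 26.3% after TMM scaling. Oasl2 averaged 11.8 CPM in libraries 3 and 4 and 5.92 CPM in libraries 1 and 2, a ratio of 1.996. Irf7 averaged 35.2 CPM in libraries 3 and 4 and 32.6 CPM in libraries 1 and 2, a ratio of 1.08. The ratios of the other members lay between 1.27 for Ifit2 and 1.83 for Ifit1. By the letter of the code, both R libraries (2 and 4) were above both L libraries (1 and 3) as deposited for 1 member, Ifit3, as for 6.08% of all tested genes, and after TMM scaling for 2 members, Ifit3 and Irf7, as for 12.2%. With 2 libraries against 2 and a code of unknown meaning, no test was made.

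**Figure D5:**
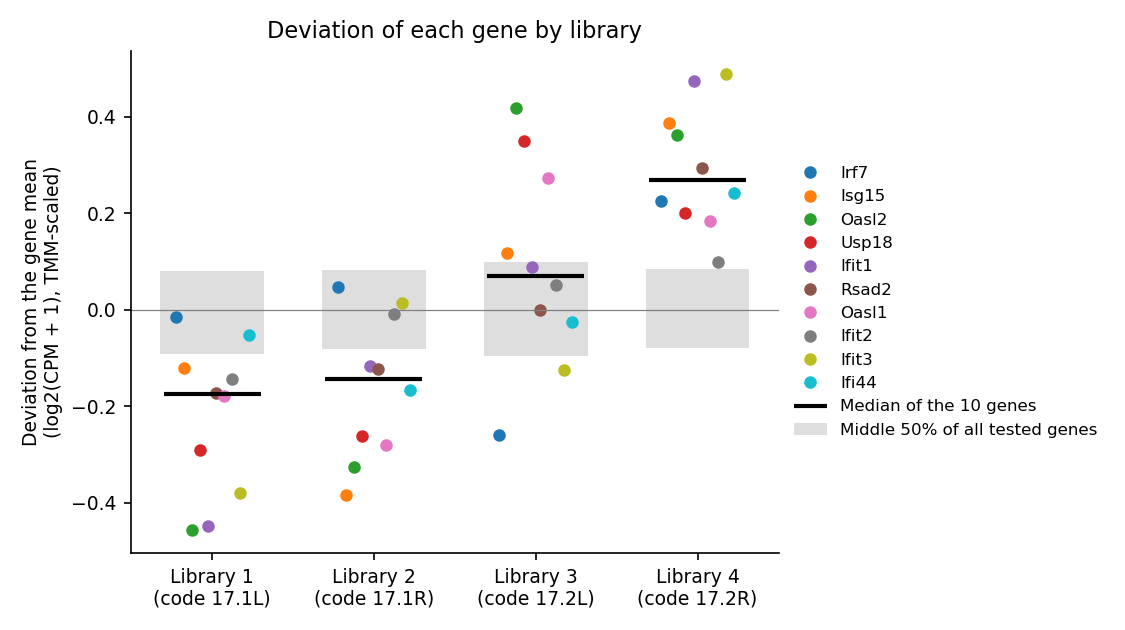
Deviation of each member from its own mean over the 4 libraries, in TMM-scaled log2(CPM + 1) (y axis), by library (x axis), with the median of the 10 genes (black lines) and the interquartile range of all tested genes (grey boxes). The medians of the members are -0.17, -0.14, 0.07 and 0.27.

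The summed levels of the marker lists also varied over these libraries, although in every marker list 0 genes passed the limma spread test. These sums are CPM as deposited. On that scale both of libraries 3 and 4 were above both of libraries 1 and 2 for 45.6% of all tested genes. After TMM scaling the share was 26.3%. At an unadjusted p under 0.05 (6.27% of all tested genes) there were 6 of 6 skeletal muscle markers, 4 of 6 fibroblast markers, 4 of 5 melanocyte markers, 2 of 4 neutrophil markers, 1 of 8 keratinocyte markers and 1 of 3 tested plasmacytoid dendritic cell markers, and 0 in the macrophage, T and NK cell and endothelial lists. The fibroblast markers summed to 6120 and 5426 CPM in libraries 3 and 4 and 3630 and 3224 CPM in libraries 1 and 2. The endothelial markers, 5 of 5 measured, summed to 62.6 and 61.9 CPM in libraries 3 and 4, against 41.7 and 42.4 CPM in libraries 1 and 2. The T and NK cell markers, 3 of 8 in the genes analysed here, summed to 11.1 and 11.5 CPM in libraries 3 and 4, against 6.05 and 5.47 CPM in libraries 1 and 2. Melanocyte markers, 5 of 5, ran the other way, with 240.3 and 252.9 CPM in libraries 3 and 4, against 354 and 334 CPM in libraries 1 and 2.
The skeletal muscle markers summed to 3245 and 4853 CPM in libraries 3 and 4, against 2682 and 1973 CPM in libraries 1 and 2, and so were highest in library 4, as most members were. Macrophage and monocyte markers, 8 of 8, summed to 119 and 109.6 CPM in libraries 3 and 4, against 104 and 92.4 CPM in libraries 1 and 2. After TMM scaling the median deviation of this list was 0.16 and -0.02 in libraries 3 and 4, against -0.07 and -0.08 in libraries 1 and 2. Keratinocyte markers summed to 10631 and 9824 CPM in libraries 3 and 4, against 8145 and 7028 CPM in libraries 1 and 2, led by Krt10 (3476 ± 808 CPM) and Krt1 (2642 ± 595 CPM). The list was not uniform: its median deviation was 0.16 and -0.01 in libraries 3 and 4, against -0.03 and -0.20 in libraries 1 and 2. Ivl, named after its values were seen, had 207 and 149.5 CPM in libraries 3 and 4, against 264 and 269.5 CPM in libraries 1 and 2. Neutrophil markers, 4 of 7, summed to 620.0 and 477 CPM in libraries 3 and 4, against 325 and 421 CPM in libraries 1 and 2. That sum was almost all S100a8 (273 ± 64.5 CPM) and S100a9 (184 ± 59.2 CPM), and Cxcr2, named after its values were seen, had 2.50 and 1.90 CPM in libraries 3 and 4, against 2.53 and 2.23 CPM in libraries 1 and 2. Of the plasmacytoid dendritic cell markers 4 of 8 were analysed here, and their sum of 180.4 and 226.9 CPM in libraries 3 and 4, against 133 and 102.3 CPM in libraries 1 and 2, was mostly Cox6a2 (153 ± 53.9 CPM), a gene that muscle also expresses. The part of any of these cell types in the levels of the 10 genes was not tested.

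Upstream of the members, the receptors and signalling proteins of the pathway were all detected, at levels above most of the members. The 6 interferon receptor genes summed to 220.0 ± 25.4 CPM, led by Ifngr2 (65.2 ± 3.07 CPM) and Ifngr1 (61.5 ± 15.9 CPM), the chains of the interferon-gamma receptor, and Il10rb (30.3 ± 2.48 CPM), a chain of the interferon lambda receptor. Of these 6 genes 0 passed the limma spread test, and Ifngr1 had an unadjusted p under 0.05. The 6 genes of the JAK-STAT and ISGF3 list summed to 223 ± 34.5 CPM, led by the kinases Jak1 (92.7 ± 13.3 CPM), Jak2 (57.8 ± 9.18 CPM) and Tyk2 (22.2 ± 2.57 CPM). Stat2 and Irf9, parts of ISGF3 that were named after their values were seen, were lower, at 16.6 ± 3.92 CPM for Stat2 and 12.9 ± 2.96 CPM for Irf9. Of the JAK-STAT and ISGF3 genes 5 were highest in library 3 and 1 in library 4, beside 35.3% and 35.4% of all tested genes, and their median deviation was -0.05, -0.18, 0.20 and 0.06 in libraries 1 to 4. Of 21 interferon genes looked up, 0 were among the genes kept, so their expression could not be described.

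Among the other IRF factors, Irf3, which acts with IRF7 in inducing interferon, had 31.9 ± 2.93 CPM and Irf2 had 28.2 ± 5.11 CPM. The level of Irf7, 33.9 CPM, was close to that of Irf3 with all its clusters and was 17.6 CPM without the edge cluster. Of the nucleic acid sensors and their adaptors 13 of 16 were tested, led by Myd88 (73.3 ± 12.05 CPM), the adaptor of Toll-like receptors, the kinase Tbk1 (34.2 ± 3.79 CPM) and Eif2ak2 (20.2 ± 1.99 CPM), which encodes the RNA-activated kinase PKR. Of the 13 tested sensors 8 were highest in library 4 (35.4% of all tested genes) and 4 in library 3 (35.3%). None of the genes of either list passed the limma spread test, and 0 had an unadjusted p under 0.05.

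The enzymes that couple ISG15 to its targets were expressed at lower levels than Isg15 itself. Ube2l6, the conjugating enzyme, had 7.10 ± 1.02 CPM, the ligase Herc6 had 3.95 ± 0.815 CPM and the activating enzyme Uba7 had 3.07 ± 0.713 CPM. For Uba7, 31.98% of the tags lay in clusters also listed under another gene. All 3 genes were highest in library 4 (35.4% of all tested genes), as Isg15 was, and their median deviation was -0.13, -0.18, 0.09 and 0.20 in libraries 1 to 4. None of the 3 passed the limma spread test, and 0 had an unadjusted p under 0.05.

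Other type I interferon-stimulated genes formed the longest list, with 45 of 51 in the table and 38 tested, and they summed to 987 ± 223 CPM. The most abundant were Ifi27l2a (157 ± 37.1 CPM), Ifitm2 (146 ± 26.6 CPM), whose tags were all in clusters also listed under another gene, and Samhd1 (139 ± 34.6 CPM), which encodes a nucleotide hydrolase that restricts viruses. Of the 38 tested genes 21 were highest in library 3 (35.3% of all tested genes), 16 in library 4 (35.4%), 1 in library 1 (22.8%) and 0 in library 2 (6.48%). Their median deviation was -0.15, -0.21, 0.20 and 0.17 in libraries 1 to 4, so libraries 3 and 4 were about level here, where the 10 members had 0.07 and 0.27. None passed the limma spread test, and 4 of 38 had an unadjusted p under 0.05, beside 6.27% of all tested genes.

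The interferon-gamma-induced genes, 19 of 24 in the table and 17 tested, summed to 218 ± 39.7 CPM. They were led by Psmb8 (40.7 ± 6.16 CPM), a subunit of the immunoproteasome, Nlrc5 (35.3 ± 7.34 CPM), an activator of MHC class I genes, and Tap1 (28.5 ± 5.06 CPM), a peptide transporter. Of the 17 tested, 11 were highest in library 3 (35.3% of all tested genes) and 4 in library 4 (35.4%). Their median deviation of 0.18 in library 3 and 0.06 in library 4 placed library 3 higher, where the 10 members had library 4 higher; the difference between the lists was not tested. The 8 negative regulators summed to 280 ± 19.5 CPM, led by Pias1 (88.1 ± 3.98 CPM), Socs3 (53.6 ± 8.07 CPM), which encodes an inhibitor of JAK signalling, and Pias4 (45.4 ± 3.05 CPM). Of these 8 genes 6 were highest in library 3 and 1 in library 4, against the same background shares of 35.3% and 35.4%. In both lists 0 genes passed the limma spread test and 0 had an unadjusted p under 0.05.

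The genes nearest to the median pattern of the members over the 4 libraries, by Euclidean distance between deviations in log2(CPM + 1), were Bach2 (0.03), Prmt2 (0.03), Elovl5 (0.04), Ftx (0.06) and Mir1906-2 (0.06), among 10309 genes of at least 10 CPM on average. The length of the members' own pattern was 0.36 on that scale. A total of 420 of these 10309 genes lay within 0.2 of it, so the pattern was not particular to the members. Of the members themselves, only Rsad2 (0.08) and Ifi44 (0.16) lay within 0.2 of their median pattern. Ifit2 (0.22) came next, and Irf7 (0.41) and Oasl2 (0.49) were farthest from it. With 4 libraries such a pattern rests on 4 values and is a description only.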

How the data were processed

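CAGE was run on 4 libraries of 1 group; the labels' protocols give column-purified total RNA of integrity over 7.0 and a commercial CAGE kit. BWA, HISAT2 and the mm9 build are named without version in the submitters' processing notes. The deposited coordinates fit GRCm38, are given as deposited, and their starts may be off by 1 base. The step that made clusters of tags is not stated. The authors' deposited values were CPM in 69391 entries; dividing by the worth of 1 tag gave whole numbers, to within 0.02 tags, for 100% of them, and these recovered tags were used. A floor of 3 tags corresponds to 0.165, 0.159, 0.170 and 0.167 CPM.

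Tags were summed per gene. Of 17849 genes, 33 had no tag, and 779 were left out because 90% or more of their tags lay in clusters that were given to some other gene. Genes of at least 1 CPM on average were scaled by TMM and tested on log2(CPM + 1) with limma 3.58.1 (intercept only, trended robust prior, one-sided upper F test of the residual variance, Benjamini-Hochberg); edgeR 4.0.16 was run on the recovered tags, and DESeq2 1.42.0 gave alternative size factors. Named genes were all members, the 3 most abundant of each pathway list, and up to 2 per marker list; Stat2, Irf9, Ifit3b, Ivl and Cxcr2 were added after their values were seen, and some genes under this rule are not reported here. The members and lists were chosen with earlier results of these data known.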

Additional observations from a re-analysis of the deposited data

How the results depend on the processing

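Of 268 values recomputed under 17 settings, 257 were counted as unchanged. For levels this meant within the replicate spread, and for counts within 1.5 times. The spread of each member counted as unchanged when its adjusted p stayed on the same side of 0.05, whatever its size. No member passed the spread test under any setting; the smallest adjusted p (limma or edgeR) was 0.562, and without library 4 only 9 members could be tested. The number of genes passing, 56, depended on the setting: 34 with DESeq2 size factors, 104 with no scaling beyond CPM, 30 with a pseudocount of 0.1 CPM, 10 with a prior without the robust option and 35 with edgeR. With at least 10 tags in every library limma called 0 genes, 920 of 14909 having an unadjusted p under 0.05. Leaving out 1 library at a time gave between 10 (without library 4) and 111 (without library 3). The cause was not tested. The summed level of the 10 genes was 67.5 CPM with the most used cluster alone, which leaves out 1 of the 2 large Irf7 clusters. Tags below 50 per library limit what can be seen for Ifit2, Ifit3 and Ifi44. No paired analysis was possible because all 4 libraries form 1 group and share no replicate number.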
